A study of Hydra viridissima with 4 samples.

Results

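Strong compact regions are short stretches of open chromatin that ranked near the top of every library of the green hydra, Hydra viridissima. They were chosen in 3 steps. Peaks of the 4 deposited lists that shared at least 1 bp were merged into 117973 union regions. Regions had to hold, in each list, a peak within the strongest 10% of that list by fold enrichment, with ties at the limit kept, and to have a merged width below 800 bp. This left 1550 regions, which are 1.31% of the union regions and 15.1% of the 10256 regions called in all 4 lists. The fold enrichment of every library and the merged width thus chose the regions, so their folds, their presence in every list and their widths are given here as a description.

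The assay was ATAC-seq. Its enzyme, the transposase Tn5, inserts sequencing adapters into DNA that nucleosomes leave free. Whole animals of clone 2 were used in both groups, which are aposymbiotic animals, without algae, and green (symbiotic) animals, which carry unicellular algae inside the epithelial cells of their gut lining. Each group has 2 libraries, labelled as biological replicates 1 and 2, and per the labels 50 large animals without buds or gonads were taken. Animals of both groups were kept in hydra medium with penicillin and streptomycin, had been raised on brine shrimp at 24 °C and were last fed 2 days earlier. The labels used here do not say how the aposymbiotic animals were obtained, and both groups are 1 clone, so the comparison covers 1 genotype. A bulk library mixes cell types, so a region open in fewer cells and a region less open in each cell cannot be told apart.

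In animal genomes, open chromatin is found mainly at promoters, where transcription starts, and at enhancers, where transcription factors bind and raise the activity of genes at a distance. A factor bound to DNA displaces a nucleosome, and the freed stretch can be cut by Tn5 while the flanking nucleosomes shield their DNA. A region that is open in most cells of an animal tends to give a strong signal in bulk tissue, and promoters of widely used genes are the usual example. Neither a genome nor a gene annotation was used here, so the regions are named by scaffold and position in the deposited lists, counted from 1, on a genome build that the labels used here do not name. Labelled tissue could not be checked against marker genes for the same reason.

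The lists differed in length and depth. They held 21481 and 78594 distinct peaks in aposymbiotic replicates 1 and 2, and 31072 and 87128 in symbiotic replicates 1 and 2. The genome-wide background, recovered from the deposited folds and p-values in tags per position (a tag is a sequenced fragment or extended read), was 9.39 and 16.7 in aposymbiotic and 6.80 and 13.5 in symbiotic replicates 1 and 2. Read totals are unknown. Peak names carry date-like tags that place both libraries of a replicate number next to each other, with the symbiotic library later in both numbers, so this tag and the condition cannot be told apart.

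Regions most often stood lowest in the libraries of replicate 1, whose lists are the shorter ones. In aposymbiotic replicate 1 the lowest fold counted as strong was 4.36, against 3.05 in the other aposymbiotic library. Symbiotic replicate 1 had a limit of 4.45 and symbiotic replicate 2 one of 3.53. Aposymbiotic replicate 1 gave the lowest percentile for 63.0% of the 1550 regions and symbiotic replicate 1 for 31.4%. The strong compact regions held 72.3% of the strong peaks of aposymbiotic replicate 1 and 50.1% of those of symbiotic replicate 1. For aposymbiotic and symbiotic replicate 2 these shares were 19.3% and 17.1%. Each region needed a strong peak in every list, so by construction these shares are lower in longer lists. Of the 9102 regions below 800 bp called in all lists, 949 were strong in 3 of the 4 lists and 3419 in none. Of the 1657 regions strong in all 4 lists, 1550 (93.5%) lay under the width limit, against 88.7% of all regions called in all 4 lists.

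At the width limit, the widest regions inside were 796 bp on scaffold 13 at 5412553 to 5413348 and 792 bp on scaffold 1 at 8434250 to 8435041. The first ones outside were 805 bp on scaffold 8 at 17267058 to 17267862 and 807 bp on scaffold 2 at 16891393 to 16892199. At the limit of strength, regions on scaffold 10 at 10343725 to 10344101 and on scaffold 11 at 7645931 to 7646055 were kept by a fold of 3.528 in symbiotic replicate 2. Just outside were a region on scaffold 13 at 10843062 to 10843220, with a fold of 4.3563 in aposymbiotic replicate 1, and one on scaffold 10 at 3022388 to 3022970, with 4.3559. The scaffold 13 region was next in rank below the strongest 10% of that list, and a limit set at the interpolated quantile of fold would take it in and give 1551 regions.

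Summits of the strong compact regions stood about 6 to 7 times above the background in a typical region. The median fold was 5.82 in both aposymbiotic libraries, 6.79 in symbiotic replicate 1 and 6.16 in symbiotic replicate 2. The median pileup at the summit was 69 and 123 tags in aposymbiotic replicates 1 and 2, and 60 and 105 tags in symbiotic replicates 1 and 2. Counts of this size carry counting error, and the lowest summit among the 1550 regions had 34 tags, in symbiotic replicate 1. The highest had 396 tags, in symbiotic replicate 2. Weaker compact regions, meaning the other 7552 regions below 800 bp called in all lists, had median folds between 2.81 and 3.29. The folds were not compared as values between libraries, because each list was called on its own and the folds of regions called in all lists differ between lists as a whole.

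The strongest compact region lay on scaffold 1 at 30802248 to 30802387 and was also narrow, at 140 bp. It had 247 tags at the summit in aposymbiotic replicate 1, 385 in aposymbiotic replicate 2, 231 in symbiotic replicate 1 and 292 in symbiotic replicate 2. Its single summit fell within 3 bp in all 4 libraries, and nowhere was its local background above the genome-wide one. It was the strongest peak of 3 lists and the fourth of symbiotic replicate 2.

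Next was a much wider region of 688 bp on scaffold 4 at 1436806 to 1437493. Its summit held 208 and 319 tags in aposymbiotic replicates 1 and 2 and 180 and 380 in symbiotic replicates 1 and 2. Libraries of replicate 2, which have the higher background, were the higher ones within each condition, and the groups overlapped.

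Scaffold 12 held 3 of the 10 strongest regions. The first, at 9321122 to 9321707, had a fold of 13.95 in aposymbiotic replicate 1 and 13.6 in replicate 2, against 23.2 and 22.97 in the symbiotic libraries of the same numbers. It was the strongest peak of the list of symbiotic replicate 2. By rank among the 10256 regions called in all lists it stood at 99.89 or above in every library, and the conditions were 0.039 percentage points apart. The second lay at 2026664 to 2027191, with 168 and 310 tags in aposymbiotic and 157 and 353 in symbiotic replicates 1 and 2. Its summits fell within 4 bp over the 4 libraries. The third lay at 9460271 to 9460713, had 2 summits in each library, and had folds of 14.5 and 12.5 in aposymbiotic and 15.8 and 17.7 in symbiotic replicates 1 and 2.

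Scaffold 1 held 2 further regions of the 10. The region at 11101299 to 11101734 had folds of 14.5 and 11.98 in aposymbiotic and of 17.39 and 17.39 in symbiotic replicates 1 and 2. Its local background was raised, at 1.45 to 1.62 times the genome-wide background in the 4 libraries. The region at 12869718 to 12870371 had folds of 12.4 and 13.8 in aposymbiotic and of 16.6 and 17.6 in symbiotic replicates 1 and 2. Its peak was 654 bp wide with 4 summits in aposymbiotic replicate 2, but 346 bp wide with 1 summit in symbiotic replicate 1.

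The remaining regions among the 10 lay on scaffolds 8, 13 and 5. The region on scaffold 8 at 13319898 to 13320110 was 213 bp wide, had 1 summit in each library and held 134 and 242 tags in aposymbiotic and 135 and 251 in symbiotic replicates 1 and 2. The region on scaffold 13 at 822864 to 823603 was the widest of the 10 at 740 bp and had folds of 12.7 and 16.1 in aposymbiotic and of 22.2 and 19.6 in symbiotic replicates 1 and 2. The region on scaffold 5 at 9124239 to 9124694 had folds of 12.03 and 15.7 in aposymbiotic and of 20.2 and 15.5 in symbiotic replicates 1 and 2. Its strongest summit lay 123 to 159 bp further along the scaffold in 3 libraries than in aposymbiotic replicate 1, the widest spread of the 10.

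**Figure D1:**
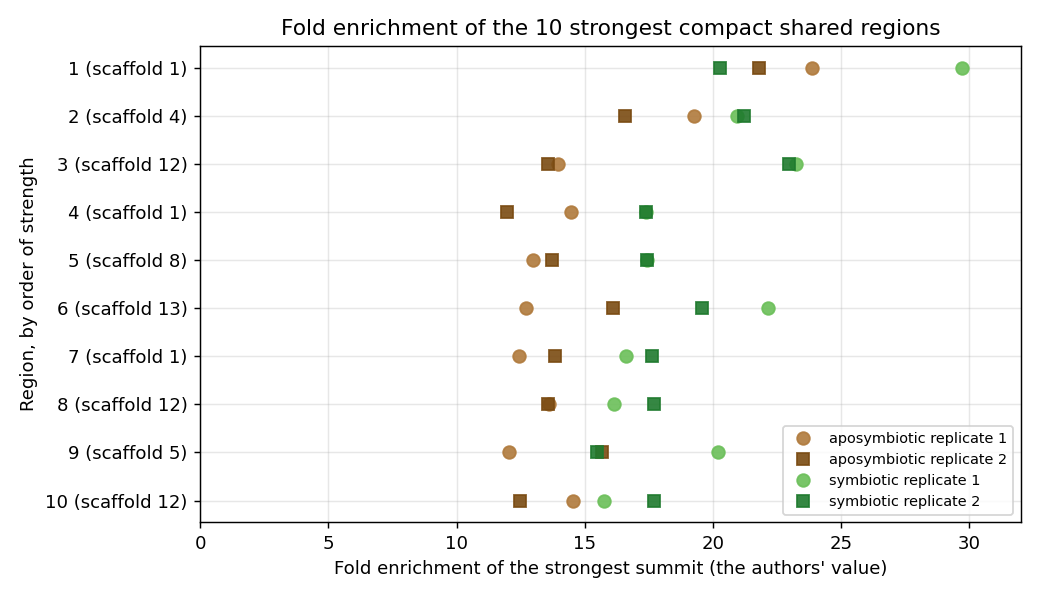
Fold enrichment at the strongest summit (horizontal axis, a ratio without unit) of the 10 strongest compact shared regions (vertical axis, in order of strength), with 1 point per library. Folds lie between 11.98 and 29.7, and the highest is that of the scaffold 1 region in symbiotic replicate 1.

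Summit position, which the choice of regions did not use, was nearly the same in the 4 libraries. The distance between the outermost of the 4 strongest summits of a region, called spread here, had a median of 17 bp, with quartiles of 10 and 33 bp. It was at most 20 bp in 890 of the 1550 regions (57.4%) and at most 50 bp in 1327 (85.6%). The lowest spread was 1 bp. Weaker compact regions had a median spread of 100 bp, and 12.4% of them stayed within 20 bp. The 107 strong regions of at least 800 bp lay between, with a median spread of 29 bp and 32.7% within 20 bp.

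Agreement was about the same for each pair of libraries. The median distance between summits of the strong compact regions was 9 bp between the aposymbiotic libraries and 7 bp between the symbiotic libraries. It was 9 bp within replicate 1 and 7 bp within replicate 2, and 9 and 8 bp for the pairs that shared neither condition nor number. No pair was shifted, as the median signed distance was 0 or 1 bp in each of the 6 pairs. The distance from 1 library's summit to the median of the other 3 had a median of 6 to 8 bp in strong and of 26 to 34 bp in weaker compact regions. It was shorter in the strong regions in 4 of 4 libraries, by 21.8 ± 2.87 bp (SD, n = 4). Each distance uses the summits of the other 3 libraries, so the 4 values are not independent and no test is given.

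Tags at the summit move with this difference, and their part in it was not tested. The median summit had 28 to 57 tags in the weaker and 60 to 123 tags in the strong regions. Among regions with 1 summit in every library, the median spread was 15 bp in 647 strong and 40 bp in 1868 weaker compact regions. Within the strong regions, split into 4 classes of equal size by their lowest percentile of fold, the median spread was 19 bp in the weakest and 16 bp in the strongest class.

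**Figure D2:**
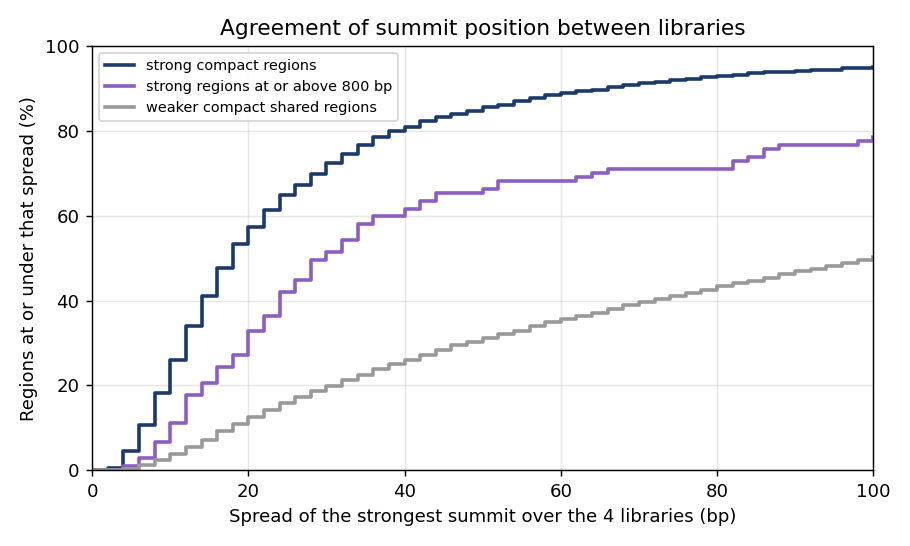
Share of regions (vertical axis, %) whose strongest summits lie within a given spread over the 4 libraries (horizontal axis, bp), for strong compact regions, strong regions of at least 800 bp and weaker compact regions called in all lists. At 20 bp the strong compact regions reach 57.4%, the strong regions of at least 800 bp 32.7% and the weaker compact ones 12.4%.

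A small group of strong compact regions had summits far apart. The spread passed 100 bp in 77 regions (4.97%), against 49.7% of weaker compact regions. The widest spread, 525 bp, was on scaffold 9 at 17089031 to 17089694, where symbiotic replicate 2 had its strongest summit at one end and the other 3 libraries had theirs within 6 bp of each other at the other end. This region only just qualified, with 50 tags and a fold of 3.528 in symbiotic replicate 2. On scaffold 10 at 13798706 to 13799275 the spread was 438 bp, with symbiotic summits at 0 and 79 bp and aposymbiotic summits at 389 and 438 bp from the first of them. Its peak was between 557 and 566 bp wide and held 2 or 3 summits in every library. On scaffold 3 at 13463700 to 13464433 the spread was 362 bp, and here 1 library of each condition used each end.

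The narrowest regions were single, sharply placed summits. They were 99 bp wide on scaffold 6 at 15196879 to 15196977, 108 bp on scaffold 1 at 11721415 to 11721522 and 114 bp on scaffold 11 at 12508322 to 12508435. Their spreads were 5, 6 and 4 bp, and each had 1 summit in every library over a local background equal to the genome-wide background. The scaffold 6 region had 48 and 70 tags in aposymbiotic and 52 and 57 tags in symbiotic replicates 1 and 2. The shortest peaks of the lists were 78 to 92 bp, not far below these regions.

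Several summits within 1 peak were common, and their number differed mostly between replicate numbers. More than 1 summit was listed in 25.5% and 44.1% of the strong compact regions in aposymbiotic replicates 1 and 2, and in 21.4% and 35.4% in symbiotic replicates 1 and 2. The genome-wide background was also higher in replicate 2 of both conditions, and its part was not tested. The symbiotic minus aposymbiotic difference in this share was -6.42 percentage points, within the spread of the libraries (34.8 ± 13.2% against 28.4 ± 9.95%, SD, n = 2 each; two-sided exact permutation p = 0.667, where 2 against 2 allows no p below 0.33). The difference turned positive without aposymbiotic replicate 2, to 2.48 points, and without symbiotic replicate 1, to 1.12 points. The limit on merged width also bears on this share, because wider regions held more summits. With no width limit the difference was -6.70 points. A single summit in every library was listed for 647 regions (41.7%), and more than 1 in every library for 153 (9.87%). The former had a median merged width of 242 bp and the latter of 562 bp. In weaker compact regions these shares were 24.7% and 4.67%.

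Neighbouring summits of 1 peak lay further apart in strong than in weaker compact regions. The median distance was 185 and 176 bp in aposymbiotic replicates 1 and 2, and 171 and 182 bp in symbiotic replicates 1 and 2. For weaker compact regions it was 135 and 128 bp in aposymbiotic and 125 and 138 bp in symbiotic replicates 1 and 2. The difference was 47.0 ± 2.58 bp (SD, n = 4), with the longer distance in the strong regions in 4 of 4 libraries (two-sided exact sign-flip permutation p = 0.125, the smallest that 4 libraries allow). The same sets of regions, chosen by the folds of all 4 libraries, enter each difference. The 4 differences are thus not independent, and nothing is concluded from this p. Summits of 1 peak cannot lie further apart than its width. Peaks of the strong regions were also wider in 4 of 4 libraries, with medians of 265 against 217 bp on average. The test therefore cannot tell spacing from width, and the part of width was not tested.

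One summit dominated in the strong compact regions. The other summits of a peak reached a median of 55.8% and 45.1% of the fold of the strongest in aposymbiotic replicates 1 and 2, and 57.2% and 46.7% in symbiotic replicates 1 and 2. In weaker compact regions they reached 79.2% to 86.3%. Since the regions were chosen by their strongest fold, this last contrast describes the choice and is given with no test.

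**Figure D3:**
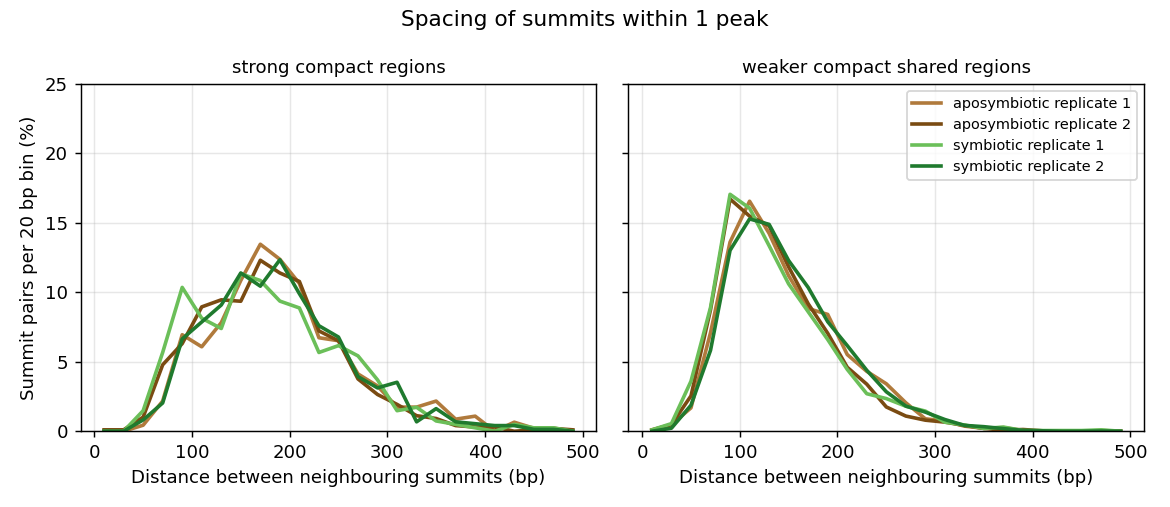
Distance between neighbouring summits of the same peak (horizontal axis, bp, in bins of 20 bp) as a share of summit pairs (vertical axis, %), with 1 line per library, for strong compact regions (left) and weaker compact regions called in all lists (right). Medians lie between 171 and 185 bp on the left and between 125 and 138 bp on the right.

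Strong compact regions were wider in aposymbiotic than in symbiotic libraries within both replicate numbers. Their median peak width was 256 bp in aposymbiotic and 220.5 bp in symbiotic replicate 1, and 312 bp in aposymbiotic and 272 bp in symbiotic replicate 2. The symbiotic median was thus lower by 35.5 and 40.0 bp, but the groups overlapped, because replicate 2 peaks were wider than replicate 1 peaks. Over the 4 libraries the difference was -37.75 bp (284 ± 39.6 against 246 ± 36.4 bp, SD, n = 2 each). This is about the size of the spread within each group, and is given with no test because the choice of regions limits the merged width. The difference was -40.0 bp with no width limit. It was -66.5 bp without aposymbiotic replicate 1, -11.0 bp without aposymbiotic replicate 2, -12.0 bp without symbiotic replicate 1 and -64.0 bp without symbiotic replicate 2.

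Region by region, the aposymbiotic peak was the wider one in 64.0% of the strong compact regions in replicate 1 and in 63.1% in replicate 2, against 57.1% and 48.7% of the 10256 regions called in all lists. Both aposymbiotic peaks were wider than both symbiotic peaks in 406 strong compact regions (26.2%), against 16.4% of the regions called in all lists. The reverse order held in 102 (6.58%), against 11.5%. These counts describe 4 libraries and were not tested. In weaker compact regions the order of the medians differed between numbers, with 181 against 164 bp in aposymbiotic and symbiotic replicate 1 and 253 against 269 bp in replicate 2. Background tags, a measure of depth, were also higher in the aposymbiotic library of both numbers, and their part in the width was not tested.

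**Figure D4:**
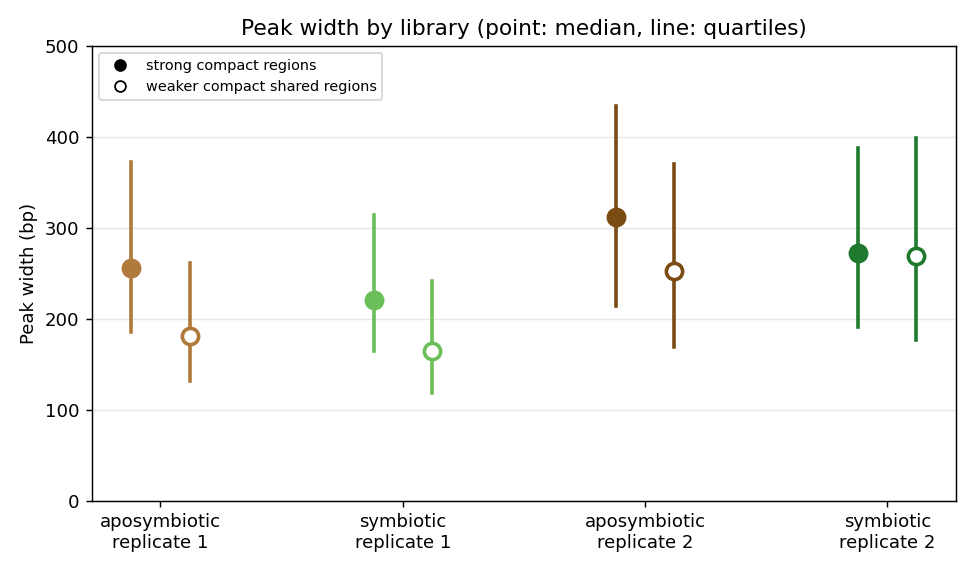
Width of the strongest peak of each region (vertical axis, bp) in the 4 libraries (horizontal axis), with points at the median and lines from the lower to the upper quartile, for strong compact regions (filled) and weaker compact regions called in all lists (open). Filled points are lower in the symbiotic library of each replicate number, by 35.5 and 40.0 bp.

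The order of strength among the strong compact regions was largely kept between libraries. Spearman's rho of fold over the 1550 regions was 0.732 between the symbiotic libraries and 0.648 between the aposymbiotic libraries. It was 0.738 within replicate 2, 0.612 within replicate 1, and 0.601 and 0.618 for the pairs that shared neither. The 2 pairs above 0.7 both include symbiotic replicate 2, and the regions share the limit on strength, which narrows the range of folds. These values describe the lists and carry no p, since regions are not replicates.

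To compare conditions on 1 scale, each region was ranked by fold within each library among the 10256 regions called in all lists, with 100 for the strongest. The folds chose the regions, so nothing is read from these shares. Both symbiotic ranks were above both aposymbiotic ranks in 269 regions (17.4%), against 19.6% of the regions called in all lists. Both aposymbiotic ranks were above both symbiotic ranks in 334 regions (21.5%), against 19.7%. Within replicate 1 the symbiotic rank was the higher one in 45.2% of the strong compact regions, against 49.4%, and within replicate 2 in 47.4%, against 51.1%. In lists cut to equal length the order of the counts turned, with 234 symbiotic and 208 aposymbiotic regions. With any 1 library left out, the order asks for less and the counts rose to between 476 and 858 for symbiotic and between 575 and 769 for aposymbiotic regions. Most gaps were small, with medians of 1.60 and 1.97 points, and a gap of at least 10 points was found in 3 symbiotic and 9 aposymbiotic regions. Upward gaps are bounded, because a region had to rank high in every library to be chosen.

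Symbiotic libraries were ahead by the widest gap on scaffold 6, at 1883647 to 1884104. It ranked at 95.6 and 97.5 in symbiotic replicates 1 and 2, and at 80.5 and 81.2 in aposymbiotic replicates 1 and 2. Its summit had 97 and 205 tags in symbiotic and 68 and 123 tags in aposymbiotic replicates 1 and 2. The groups thus overlapped in tags, but within each number the symbiotic summit had more, over a lower genome-wide background. Tags are part of the fold, so they are no separate support for the gap. The 4 summits lay within 9 bp. Ranks of the groups do not overlap because the region was picked for its rank gap.

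On scaffold 2 at 24711853 to 24712164 the ranks were 94.7 and 92.6 in symbiotic and 81.1 and 74.7 in aposymbiotic replicates 1 and 2. For scaffold 8, 7182946 to 7183353, the ranks were 97.7 and 91.5 in symbiotic and 81.4 and 64.1 in aposymbiotic replicates 1 and 2. The aposymbiotic libraries were low in both regions, replicate 2 most of all. The other 2 were on scaffold 1 at 10858735 to 10858935 and on scaffold 4 at 5387941 to 5388092, with gaps of 9.94 and 9.53 points. At all 5 regions the symbiotic libraries had more summit tags than the aposymbiotic library of the same number. This largely follows from the choice, since tags are part of the fold whose rank gap picked these regions.

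The widest gap towards aposymbiotic animals was on scaffold 1 at 34515200 to 34515422. It ranked at 91.8 and 92.3 in aposymbiotic replicates 1 and 2, and at 75.4 and 70.0 in symbiotic replicates 1 and 2. Its summit had 60 and 106 tags in aposymbiotic and 35 and 59 tags in symbiotic replicates 1 and 2. Next was scaffold 2 at 8414017 to 8414221, with ranks of 94.1 and 93.3 in aposymbiotic and 75.4 and 77.5 in symbiotic replicates 1 and 2. Its summits lay within 6 bp in the 4 libraries. In both regions the ranks of the groups do not overlap because the regions were picked for their gaps.

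On scaffold 7 at 12060110 to 12060305 the ranks were 94.2 and 88.0 in aposymbiotic and 73.0 and 52.3 in symbiotic replicates 1 and 2. For scaffold 12, 7893814 to 7894023, the ranks were 93.7 and 93.0 in aposymbiotic and 78.3 and 64.9 in symbiotic replicates 1 and 2. Symbiotic replicate 2 had the lowest rank in both regions. The fifth, on scaffold 3 at 13863847 to 13864032, had a gap of 13.2 points. All 5 aposymbiotic regions were between 186 and 223 bp wide and had 1 summit in each library. No test is given for these regions, because they were picked for their gaps.

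**Figure D5:**
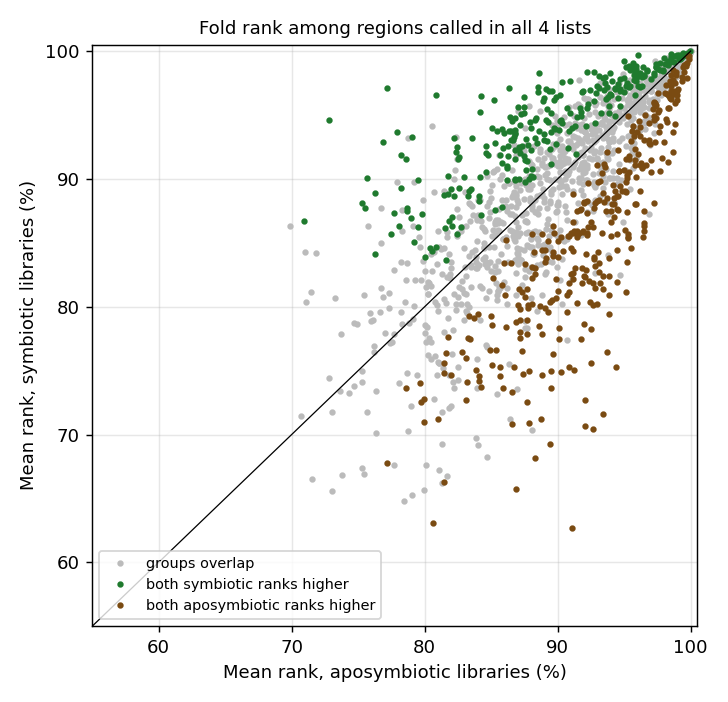
Mean fold rank of the 1550 strong compact regions in the aposymbiotic (horizontal axis) and symbiotic libraries (vertical axis), as a percentage of the 10256 regions called in all lists, with the line of equal rank. Points are coloured where both libraries of a condition rank above both of the other, which holds for 269 symbiotic and 334 aposymbiotic regions.

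Strong compact regions were spread over the large scaffolds in proportion to the regions called in all lists. The 14 scaffolds with at least 1000 union regions held 1538 of the 1550, or 5.61 per Mb up to the last peak. Their density ranged from 2.89 per Mb on scaffold 14 to 7.36 per Mb on scaffold 2, where 194 regions lay, the highest number. As a share of the regions called in all lists, however, they made up between 13.2% (scaffold 10) and 16.4% (scaffold 14). The scaffold that was sparsest in strong compact regions thus had the highest of these shares. The other 12 lay on scaffolds 15, 16, 17, 18 and 23. With each large scaffold cut into 10 equal parts, the parts at both ends together held 14.7% of the strong and 17.4% of the weaker compact regions, a difference that was not tested.

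Strong compact regions lay about as far from the nearest other strong compact region as weaker compact regions did. The median distance from edge to edge to the nearest other one was 45692 bp, with quartiles of 20328 and 94560 bp. For weaker compact regions the nearest strong compact region lay at a median of 47801 bp. Within 5000 bp of another strong compact region lay 92 strong compact regions (5.94%), against 6.12% of weaker compact regions. From strong compact regions, the nearest region called in all lists lay at a median of 7673.5 bp, against 6298 bp for weaker compact regions. Left-out libraries change which regions count as called in all lists, and this distance was 4233.5 bp without aposymbiotic replicate 1. The nearest union region of any kind lay at a median of 674 bp, against 343.5 bp for weaker compact regions. In 49.8% of the strong compact regions that neighbour was called in a single library and in 12.8% in all 4. Of all 117973 union regions, 10256 were called in all 4 lists. The same shares for the neighbours of other regions are not given here, so nothing is read from them.

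The closest pairs were little more than 200 bp apart. On scaffold 10, the region at 13798706 to 13799275 with its 438 bp spread was 240.0 bp from one at 13799516 to 13800034, whose summits lay within 4 bp. The latter was the stronger of the pair in each library, with 87 and 179 tags in aposymbiotic and 96 and 145 tags in symbiotic replicates 1 and 2. On scaffold 2, regions at 19335005 to 19335339 and 19335591 to 19335965 were 251 bp apart. The third pair, again on scaffold 10, lay at 13511274 to 13511707 and 13511962 to 13512357, 254 bp apart. Its local background was between 1.63 and 1.80 times the genome-wide background.

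The window of 100 kb with most strong compact regions was on scaffold 12 at 9400001 to 9500000 and held 5, among them the region at 9460271 to 9460713 described above. A further 15 windows held 4 each, and 762 held 1. The longest stretch of a large scaffold between neighbouring strong compact regions was 2.06 Mb on scaffold 1, at 23389019 to 25445504. It held 206 union regions, of which 13 were called in all lists, so peaks were called within it.

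The local background of a peak was recovered like the tags. The genome-wide background was set as its lowest allowed value, so by construction its ratio to the genome-wide background starts at 1. The local background is also the denominator of the fold that chose the regions, and is given as a description with no test. It was raised by over 1% above the genome-wide background in 62.7% and 61.7% of regions in aposymbiotic replicates 1 and 2. In symbiotic replicates 1 and 2 the share was 60.7% and 60.3%. The symbiotic minus aposymbiotic difference was -1.71 percentage points (62.2 ± 0.730% against 60.5 ± 0.319%, SD, n = 2 each). The groups did not overlap here, but this depended on the processing. They overlapped with the top 5% of each list (-1.15 points), with peaks of -log10 q of at least 5 (-0.607 points) and with ranking by recovered tags (-0.869 points). In weaker compact regions the raised share was higher in each of the 4 libraries, at 63.0% and 66.5% in aposymbiotic and 61.7% and 65.5% in symbiotic replicates 1 and 2. The median local background was 1.13 and 1.17 times the genome-wide background in aposymbiotic and 1.10 and 1.15 times in symbiotic replicates 1 and 2. In weaker compact regions these ratios were 1.10, 1.15, 1.09 and 1.13, lower in 4 of 4 libraries. The share and the median thus differed from the weaker regions in opposite directions.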

How the data were processed

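Chromatin accessibility was measured in 4 whole-animal ATAC-seq libraries, sequenced as paired reads of 50 bases per the labels. The submitters' processing notes name MACS3 3.0.4, Bowtie2 2.5.4, Trim Galore 0.6.10 and deepTools, and their settings and the genome build were not given in the sources used here. For each library the authors deposited a peak list that gives, per summit, a fold enrichment (a ratio), the -log10 of the p-value and of the q-value, a score and the summit's offset. No deposited -log10 q was below 2, a q of 0.01. Fold and score are the authors' values per peak.

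Summits listed for the same interval were counted as 1 peak with its strongest summit. A peak's percentile is the share of its list with a fold no higher. Whole tags and the background at each summit were solved from fold = (tags + 1) / (background + 1) and the Poisson p-value. A background below the genome-wide one was not allowed. Each peak of a region called in all lists was solved within 0.001 of its -log10 p. Regions are not replicates, so conditions were compared over libraries, with an exact permutation test for the share with several summits. The tests planned for peak width and raised local background are not reported, since the choice of regions limits the first and the fold contains the second. Comparisons with weaker compact regions over libraries, and the counts of peak width, were not planned. Of the former, only the distance between summits of a peak is given with a sign-flip test. Named regions are the 10 with the highest lowest-percentile, the 5 widest rank gaps each way, the 3 closest pairs, the 3 widest spreads, the 3 narrowest, those next to the limits, the densest 100 kb window and the longest stretch without a region. The regions and these rules were chosen with earlier results of these data known. Alternatives are given in the closing section. Replicate numbers were not taken to pair libraries in the permutation test between conditions, since the labels do not say that they mark a shared batch. Differences within a number are given as a description, and a replicate block as an alternative. Procedures were tested on simulated lists. Sequence, motif and gene analyses had been planned on condition that a genome was given and were not run. Python 3.11.15, numpy 2.4.6, pandas 2.3.3, scipy 1.17.1 and matplotlib 3.10.9 were used.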

Additional observations from a re-analysis of the deposited data

How the results depend on the processing

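The number of strong compact regions was 786 with the top 5% and 2656 with the top 20% of each list, and 577 with peaks held to a stricter -log10 q (5 or more). It lay between 1098 and 2316 under the other alternatives. The 10 strongest stayed strong compact regions under each alternative except a width limit of 500 bp, which kept 5. Summit spread was 16 bp with the top 5%, below 500 bp, at the stricter q and in lists of equal length. It was 18 bp with no width limit, with 200 bp summit windows and with regions ranked by recovered tags, 20 bp with the top 20%, and 12 to 15 bp with 1 library left out. The distance to the nearest shared region was 16509 bp at the stricter q, 14240.5 bp at equal length, 8777 bp with summit windows, 6943 bp ranked by tags and 4233.5 to 7608 bp with 1 library left out. Regions with both symbiotic ranks higher numbered 131, 454 and 99 with the top 5%, the top 20% and the stricter q, and 476 to 858 with 1 library left out. Those with both aposymbiotic ranks higher numbered 164, 598, 113 and, at equal length, 208, and 575 to 769 with 1 library left out. Fewer qualifying regions lower such counts by construction. At equal length the order of these counts turned, to 234 symbiotic and 208 aposymbiotic regions; the cause was not tested. The group mean of the median peak widths stayed lower for symbiotic libraries in every alternative (-66.5 to -11.0 bp). Of these, the replicate block gives the main difference by construction. The difference in the share with several summits ranged from -15.4 to 2.48 points with 1 library left out, turning to 2.48 without aposymbiotic replicate 2 and 1.12 without symbiotic replicate 1. For raised local background the difference ranged from -2.41 points with the top 20% to -0.607 points at the stricter q. With the replicate block the differences were -37.75 bp in width, -6.42 points in several summits and -1.71 points in raised local background. The second has p = 0.5 in an exact sign-flip permutation, which 2 pairs cannot lower. Ranking by tags and the limit at the interpolated quantile, which gave 1551 regions, were chosen after seeing the data. Read totals are unknown, and what depth limits was not tested.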
